A study of Mus musculus with 8 samples.

Results

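Mitochondrial shape is set by fusion and fission, and the chromatin of 10 genes that carry out both was followed in tumour dendritic cells. ATAC-seq, in which a transposase cuts and tags open DNA, was applied to type 1 conventional dendritic cells (cDC1s), which take up tumour antigen and present it to CD8 T cells. They had been isolated from tumours of B16-OVA, a mouse melanoma line engineered to make ovalbumin, and the labelled genotype was wild type for all of them. 4 libraries came from day 7 after tumour inoculation and 4 from day 21, and the count of a region stands for its accessibility. Each day held 4 libraries with no treatment named, and the labels do not tell whether they came from separate mice or pools, so the tests measure the spread between libraries. A lower value in every cell and fewer cells with an open region cannot be told apart in such bulk libraries.

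The genes were Opa1, Mfn1, Mfn2, Dnm1l, Fis1, Mff, Oma1, Yme1l1, Immt and Chchd3, out of 21887 protein-coding genes. A region belonged to a gene when its centre lay in the gene body, or within 50 kb of it with that gene's end as the nearest protein-coding gene end. 41 of 128057 regions met this rule. 9 lay within 1 kb of an end of their own gene, all at the start, and 32 lay elsewhere and are called distal. Of the distal regions 24 were in a gene body and 8 outside. Each gene had from 2 regions (Mff and Immt) to 11 (Chchd3, whose body spans 268.1 kb). Of the 41 regions 37 had enough counts to be tested, and 4 weak distal ones did not (2 of Mfn1, 1 of Yme1l1 and 1 of Chchd3).

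Mitochondria fuse in steps: mitofusins on the outer membrane join that membrane, and OPA1, a dynamin-like GTPase of the inner membrane, joins the inner one and holds the folds called cristae in shape. Fission is driven by DRP1, the product of Dnm1l, a cytosolic GTPase that adaptors such as MFF and FIS1 bring to the outer membrane. The proteases OMA1 and YME1L1 cut OPA1 into short forms, and the MICOS complex, which contains the products of Immt and Chchd3, keeps crista junctions in place. In immune cells this balance is tied to respiration and to how cells switch metabolic programmes.

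Total counts in regions were between 9440223 and 16063736 at day 7 and between 14021151 and 27737040 at day 21. cDC1 markers were open: 9 of 10 had a region at a gene end (Itgae had none), and Irf8 fell and Wdfy4 rose among them. Their summed accessibility was 339 to 367 CPM (counts of a region scaled to a common library total) at day 7 and 334 to 366 at day 21. Calls in this paragraph are from the edgeR test described below. Macrophage and monocyte markers summed to 71.4 to 77.2 CPM at day 7 and 79.9 to 87.8 at day 21 without overlap, and C1qa, C1qc and Cd14 rose among 10. T and NK cell markers gave 66.6 to 78.7 and 71.4 to 82.9 CPM, most of it at Cd3d, Cd247 and Klrb1c. Of that list Klrb1c rose and Bcl11b fell from 2.13 to 0.580 CPM, while Cd3e had 1.07 and 0.977 CPM. B cell markers gave 24.2 to 31.0 and 23.3 to 26.4 CPM. Neutrophil markers gave 6.64 to 8.60 and 6.19 to 8.72 CPM. Melanoma markers gave 165 to 178 and 162 to 174 CPM, most of it at Pmel, while Dct had 0.682 and 0.298 CPM and Tyr no region. There Mitf rose and Tyrp1 and Sox10 fell. Stromal and endothelial markers gave 10.4 to 13.7 and 8.78 to 9.67 CPM without overlap, and Cdh5 fell. The part of these shifts in the results below was not tested. A region at the end of a marker gene can also lie at an end of a neighbouring gene, which was not checked for these lists.

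The promoter sequences of the members whose starts lost accessibility, and of 2 whose starts did not pass, are shown first, so that the starts compared below can be read beside their values. Each is the 250 bases before the outermost start in a RefSeq promoter table (GRCm38.p6, the assembly of mm10), written 5′ to 3′ on the strand of the gene. Capitals mark matches on either strand to the 10-base NRF1 palindrome, CCGGAAGT (ETS), CCAAT (the CCAAT box) and GGGCGG (the SP box). The 2 shown that did not pass, Mfn1 and Fis1, are the members with the ETS word. The other starts that did not pass are not printed.
Opa1 (chr16:29579084-29579333, plus strand): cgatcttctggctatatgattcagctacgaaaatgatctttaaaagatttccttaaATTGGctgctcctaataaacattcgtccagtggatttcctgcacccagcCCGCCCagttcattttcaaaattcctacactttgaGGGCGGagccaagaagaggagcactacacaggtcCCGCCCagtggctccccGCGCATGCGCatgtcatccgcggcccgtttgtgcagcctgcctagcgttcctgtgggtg
Mfn2 (chr4:147904910-147905159, minus strand): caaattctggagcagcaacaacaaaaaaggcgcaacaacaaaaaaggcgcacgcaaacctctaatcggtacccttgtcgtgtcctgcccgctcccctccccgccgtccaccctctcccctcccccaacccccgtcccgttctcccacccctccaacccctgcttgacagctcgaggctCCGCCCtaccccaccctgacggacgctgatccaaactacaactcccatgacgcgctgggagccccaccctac
Mff (chr1:82724640-82724889, plus strand): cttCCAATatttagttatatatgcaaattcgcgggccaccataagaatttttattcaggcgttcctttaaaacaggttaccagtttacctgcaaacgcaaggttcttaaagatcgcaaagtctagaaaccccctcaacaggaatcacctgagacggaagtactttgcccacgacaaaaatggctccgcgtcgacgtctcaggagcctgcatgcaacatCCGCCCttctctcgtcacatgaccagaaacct
Chchd3 (chr6:33060261-33060510, minus strand): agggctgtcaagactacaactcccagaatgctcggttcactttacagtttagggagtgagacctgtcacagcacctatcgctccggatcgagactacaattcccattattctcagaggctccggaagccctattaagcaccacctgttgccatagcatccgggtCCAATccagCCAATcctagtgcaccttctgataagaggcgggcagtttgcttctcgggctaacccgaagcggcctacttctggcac
Mfn1 (chr3:32529232-32529481, plus strand): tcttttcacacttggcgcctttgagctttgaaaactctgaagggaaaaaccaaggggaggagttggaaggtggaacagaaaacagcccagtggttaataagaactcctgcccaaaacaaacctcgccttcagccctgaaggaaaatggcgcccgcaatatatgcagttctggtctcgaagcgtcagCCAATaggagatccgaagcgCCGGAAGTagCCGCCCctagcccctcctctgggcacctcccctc
Fis1 (chr5:136953025-136953274, plus strand): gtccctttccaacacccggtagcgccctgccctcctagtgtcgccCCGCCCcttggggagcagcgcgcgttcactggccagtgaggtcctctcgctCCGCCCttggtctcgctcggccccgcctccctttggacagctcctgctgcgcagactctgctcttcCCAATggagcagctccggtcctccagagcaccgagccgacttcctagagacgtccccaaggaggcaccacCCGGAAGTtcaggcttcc

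Opa1 was the member whose promoter window held the NRF1 word, which reads the same on both strands, with its first base 59 bases before the start. NRF1 is a transcription factor of many nuclear genes for mitochondrial proteins. In windows of 300 bases (250 before and 50 after each start) the word stood in 1.33% of 21263 promoters of protein-coding genes. As a gene can have several starts, it was in a window of 1.47% of 17492 genes, and the shares below are of genes. The ETS word stood in the windows of Mfn1, 44 bases before the start, and Fis1, 18 bases before it, and in windows of 5.69% of all genes. The SP box stood in 8 of the 10 genes and in 49.2% of all genes, and the CCAAT box in 8 and 42.3%. CACGTG (the E-box) was in the window of Chchd3 across the start, and in 8.91% of all genes. TGACTCA (AP-1), TGACGTCA (CRE), AAGATGGCG (YY1), TCAAGGTCA (ERR) and the ISRE word had no match in the member windows, against 5.40%, 2.54%, 2.14%, 0.377% and 3.94% of all genes. None of the searched words of 7 or more letters was thus found at the starts of Mfn2, Mff and Chchd3. The same held for Dnm1l, Oma1, Yme1l1 and Immt, whose starts did not pass as changed. Each match is only a match of letters.

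By day 21 accessibility had fallen at the starts of 4 of the 9 genes with a region there, Opa1, Mfn2, Mff and Chchd3, and had risen at 0, while 5 did not pass. The test was edgeR's quasi-likelihood test on sums at gene ends, with Benjamini-Hochberg adjustment over all 13572 genes and a threshold of 0.05. Over all genes 24.6% were lower and 6.71% higher by the same rule. The median change of the 9 genes was −0.10 on the log2 scale, against −0.09 over all genes. With trended offsets, a scaling that removes the average shift at each level of accessibility, 2 of the 9 genes were lower (Opa1 and Mfn2) and 1 higher (Mfn1). The medians were then −0.0093 and −0.0044, and without day 21 replicate 3 they were −0.21 and −0.12. Shares of all genes that passed with trended offsets are not given, so the 2 lower and 1 higher have no background here. Without overlap between the days were the same 4 genes, all lower at day 21, against 20.6% of all genes in that direction. Each of these sums held 1 region, so the fit of single regions repeats the same counts, with 4 of the 9 lower and 0 higher. Trended offsets fitted over all tested regions also gave 4 lower and 0 higher, unlike those fitted over the sums, again without a share of all regions. In the region fit without these offsets 23.2% of all regions at gene ends passed, 16.6% lower and 6.63% higher. The libraries did not overlap at 4 of these regions, all lower, against 16.4% lower and 7.31% higher of all such regions.

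**Figure D1:**
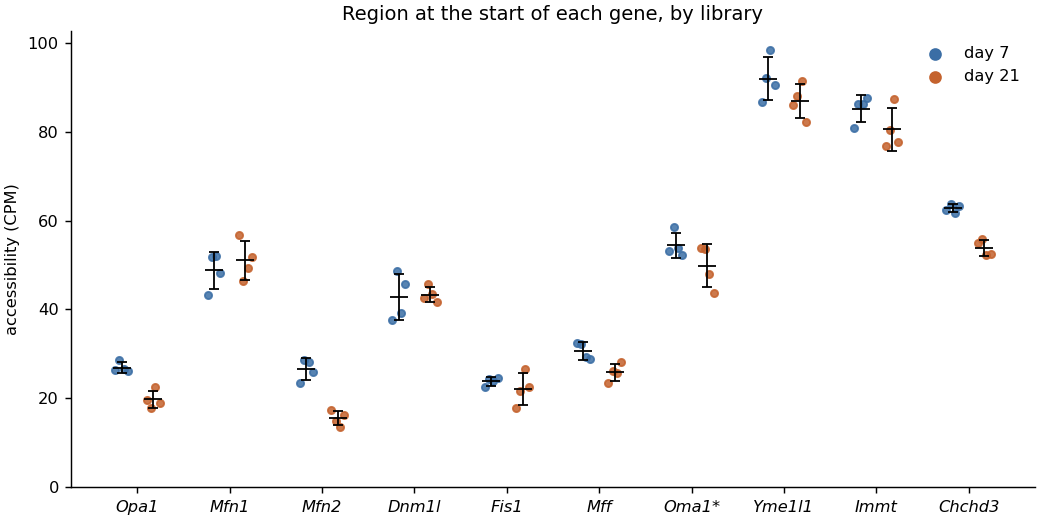
Accessibility (CPM, linear axis from 0) of the region at the start of each gene in 4 libraries of day 7 (blue) and 4 of day 21 (orange); bars are mean ± SD. The day 21 points lie below all day 7 points at Opa1, Mfn2, Mff and Chchd3 and overlap them at the others; the asterisk marks Oma1, whose start region lies inside the body of the gene model and counts as distal.

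At the start of Opa1 (region chromosome 16, 29579089 to 29579742) the day 7 libraries had 26.4, 28.7, 26.5 and 26.0 CPM and the day 21 libraries 19.5, 17.9, 22.5 and 19.0 CPM. All day 21 libraries were below all day 7 libraries, and replicate 3 was the highest of day 21. The mean went from 26.9 ± 1.20 to 19.7 ± 1.98 CPM (SD, n = 4), a log2 fold change of −0.45 ± 0.09 (SE, edgeR adjusted p = 1.11e-04). This change stood at percentile 6.48 of all gene ends, from the most negative upward. The region covered the NRF1 word shown above and the annotated start.

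Away from its start Opa1 had few open sites. A region in the body near the far end of the gene (chromosome 16, 29660752 to 29661304) had 1.58 ± 0.604 and 1.54 ± 0.670 CPM (−0.05 ± 0.34, edgeR adjusted p = 0.945). A region downstream of the gene, 110.34 kb from its start (chromosome 16, 29689449 to 29689784), had 1.67 ± 0.422 and 2.06 ± 0.639 CPM (0.32 ± 0.30, edgeR adjusted p = 0.511). Their libraries overlapped, and counts of 8 to 63 per library leave wide errors. Summed, the distal regions changed by 0.15 ± 0.24 (edgeR adjusted p = 0.676). The log2 ratio of start to distal accessibility fell by 0.53 ± 0.25 within libraries, which did not pass (limma adjusted p = 0.172). By contrast 16.7% of 11247 genes passed this ratio test.

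The 3 genes whose gene ends followed Opa1 most closely over the 8 libraries were Psmc2, Atp5g2 and Zbtb45, with Pearson r of 0.989, 0.987 and 0.986. These values describe a pattern in which the days differ and share the scaling of each library. The genes had day means of 37.9 and 32.6, 36.1 and 27.1, and 40.4 and 28.7 CPM.

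The mitofusins differed in what was measured at their starts. Mfn2 had 23.3, 28.7, 28.1 and 26.0 CPM at day 7 and 17.3, 14.9, 13.6 and 16.2 CPM at day 21 (chromosome 4, 147904361 to 147905190). Every day 21 library was below every day 7 library. The mean fell from 26.5 ± 2.42 to 15.5 ± 1.62 CPM, a log2 fold change of −0.77 ± 0.10 (edgeR adjusted p = 4.15e-09), or 1.71-fold lower, at percentile 2.14 of all gene ends. Mfn1 had 43.2, 51.8, 52.1 and 48.2 CPM at day 7 and 56.7, 46.3, 49.4 and 51.7 CPM at day 21 (chromosome 3, 32529159 to 32529899). Those libraries overlapped, and the change was 0.06 ± 0.07 (edgeR adjusted p = 0.510). The difference between the mitofusins was not itself tested. With trended offsets of the sums Mfn1 passed as higher (0.17, edgeR adjusted p = 0.0456). In the fit of single regions its start did not pass in any of 15 alternatives.

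Next to the start of Mfn2 a weak region 1.25 kb into the gene (chromosome 4, 147903498 to 147903831) had 4.72 ± 0.583 and 3.19 ± 0.941 CPM (−0.54 ± 0.21, edgeR adjusted p = 0.0670). Another at 8.28 kb had 2.60 ± 0.706 and 2.20 ± 0.952 CPM. The distal sum of Mfn2 changed by −0.42 ± 0.18 (edgeR adjusted p = 0.0659). It passed without day 21 replicate 1 (0.0435) or replicate 4 (0.0144), with trended offsets (0.0393) and in a fit blocked by replicate number (0.0351). It was smaller without day 21 replicate 3 (−0.26, 0.262), with windows of 2000 bp (−0.22, 0.617) and with starts of the promoter table (−0.22, 0.613), the last 2 of which take the region at 1.25 kb out of the sum. Both distal regions of Mfn1, which lie inside the neighbouring gene Gnb4, had from 1 to 21 counts per library and were not tested. Without day 21 replicate 3, the lowest of that day, their sum passed the count filter through the day 21 libraries alone. A filter met in this way favours a higher value at day 21, so the resulting change (1.32 ± 0.51) is no support for a gain. Day 21 replicate 2 held 37 counts and the other libraries 3 to 21.

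Among the fission genes Dnm1l changed inside the gene and not at its start. The start region (chromosome 16, 16358417 to 16359233) had 42.8 ± 5.25 and 43.3 ± 1.70 CPM (0.02 ± 0.07, edgeR adjusted p = 0.880). In the body, 12.28 kb from the start (chromosome 16, 16346571 to 16346938), a region had 3.49, 4.57, 2.61 and 2.67 CPM at day 7 and 1.55, 0.241, 0.530 and 0.640 CPM at day 21. All day 21 libraries were lower. The change was −2.20 ± 0.35 (edgeR adjusted p = 1.56e-06), or 4.58-fold lower, from 31 to 43 counts per library at day 7 and 4 to 22 at day 21. It was the largest fold among the tested regions of the 10 genes. A stronger neighbour (chromosome 16, 16351274 to 16352075) had 14.0 ± 0.970 and 15.6 ± 0.777 CPM (0.15 ± 0.11, edgeR adjusted p = 0.374). The distal sum of Dnm1l, which this neighbour dominates, changed by −0.15 ± 0.10 (edgeR adjusted p = 0.272).

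Mff, the gene of a DRP1 receptor on the outer membrane, was lower at both of its regions. Its start (chromosome 1, 82724345 to 82725331) had 32.5, 32.2, 29.2 and 28.8 CPM at day 7 and 23.4, 26.2, 25.7 and 28.1 CPM at day 21, a narrow separation of the days. The change was −0.24 ± 0.08 (edgeR adjusted p = 0.0232). In the sums this call was lost with trended offsets (−0.13, 0.239), and without day 7 replicate 1 (0.0702), day 7 replicate 2 (0.0599) or day 21 replicate 1 (0.0902). In the fit of single regions the start kept its call with trended offsets but lost it in 6 of 15 alternatives. The region in the body, 15.86 kb from the start (chromosome 1, 82740515 to 82740984), fell from 5.95 ± 1.39 to 3.30 ± 0.568 CPM (−0.81 ± 0.20, region edgeR adjusted p = 0.00209). There the lowest day 7 library, with 3.91 CPM, was below the highest of day 21, with 4.02 CPM.

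Fis1, the other outer-membrane protein of this step, had regions at both of the starts that the promoter table gives it. The upstream one (chromosome 5, 136952932 to 136953400) had 22.4, 24.2, 23.9 and 24.5 CPM at day 7 and 17.8, 21.6, 26.6 and 22.4 CPM at day 21. Day 21 libraries lay on both sides of those of day 7, and the change was −0.10 ± 0.09 (edgeR adjusted p = 0.438). The inner one, 9.04 kb further on (chromosome 5, 136961706 to 136962921), had 29.1 ± 2.84 and 26.8 ± 3.18 CPM (−0.12 ± 0.09, region edgeR adjusted p = 0.390). Another region between them had 4.14 ± 1.52 and 4.89 ± 0.975 CPM. 0 of the 3 Fis1 regions passed, against 19.4% of all tested regions.

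The proteases that process OPA1 had open starts in both days. Yme1l1 shares its start region with an end of Mastl (chromosome 2, 23155738 to 23156748), so the values cannot be given to either gene. It had 92.0 ± 4.89 and 87.0 ± 3.87 CPM (−0.08 ± 0.06, edgeR adjusted p = 0.281). For Oma1 the gene table begins upstream of the start in the promoter table, so its start region (chromosome 4, 103313513 to 103314274) counted as distal. This region had 54.4 ± 2.80 and 49.8 ± 4.83 CPM with overlapping libraries (−0.13 ± 0.07, region edgeR adjusted p = 0.200). When starts were taken from the promoter table, Oma1 had −0.13 ± 0.07 (edgeR adjusted p = 0.127), and the same 4 members as at gene ends were lower, against 26.7% of all genes.

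Inside Yme1l1 the distal sum fell from 14.4 ± 1.97 to 10.8 ± 0.636 CPM (−0.42 ± 0.12, edgeR adjusted p = 0.00577), without overlap. Without day 7 replicate 1, the highest library, the adjusted p was 0.0544. The strongest of these regions, 17.05 kb from the start, had 10.0 ± 1.08 and 8.12 ± 0.695 CPM without overlap (−0.29 ± 0.14, region edgeR adjusted p = 0.141). A weak one at 6.79 kb (chromosome 2, 23162074 to 23162395) passed as lower (−0.91 ± 0.33, region edgeR adjusted p = 0.0424), from 10 to 36 counts per library at day 7 and 12 to 26 at day 21. It lost its call in 9 of 15 alternatives, with adjusted p up to 0.164 without day 7 replicate 3. Leaving out day 7 replicate 1 (0.104) or 4 (0.0914), or day 21 replicate 1 (0.0978) or 4 (0.130), also ended it.

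Downstream of Oma1, 77.08 kb from the start of its gene model (chromosome 4, 103388785 to 103389136), a weak region gained accessibility. It had 0.997, 1.91, 0.422 and 0.621 CPM at day 7 and 2.25, 2.89, 3.36 and 2.53 CPM at day 21. Each day 21 library was above each day 7 library (1.55 ± 0.33, region edgeR adjusted p = 3.31e-04), with 5 to 18 counts at day 7 and 32 to 71 at day 21. A stronger region nearby, 76.13 kb from the start, had 3.51 ± 1.11 and 4.20 ± 1.17 CPM (0.28 ± 0.22, region edgeR adjusted p = 0.421). The distal sum of Oma1, which includes its start, changed by −0.03 ± 0.06 (edgeR adjusted p = 0.735).

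Of the MICOS genes, Immt had a strong start (chromosome 6, 71831029 to 71832022) with 85.2 ± 2.99 and 80.6 ± 4.85 CPM (−0.08 ± 0.06, edgeR adjusted p = 0.287). Its 1 distal region was near 1 CPM in both days (1.28 ± 0.594 and 1.03 ± 0.346). Chchd3 moved in opposite directions at its start and in distal regions. The start (chromosome 6, 33059840 to 33060604) had 62.5, 63.7, 61.7 and 63.4 CPM at day 7 and 54.9, 55.8, 52.2 and 52.4 CPM at day 21, without overlap. This was a change of −0.22 ± 0.06 (edgeR adjusted p = 0.00361), which did not pass with trended offsets of the sums (−0.12, 0.0955). In the fit of single regions the start passed in all 15 alternatives, trended offsets included.

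The distal sum of Chchd3 had 51.7, 53.6, 51.2 and 52.1 CPM at day 7 and 77.8, 86.8, 73.3 and 77.1 CPM at day 21. It rose by 0.59 ± 0.06 (edgeR adjusted p = 2.53e-11) and stood at percentile 95.5 of all distal sums. The log2 ratio of start to distal accessibility fell by 0.81 ± 0.08, from 0.27 to −0.54, and this difference between start and distal regions passed over all genes (limma adjusted p = 0.00227). Chchd3 was the 1 gene of the 8 with both values that passed this ratio test, against 16.7% of 11247 genes.

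Most of the Chchd3 gain came from 1 region in the body, 248.39 kb from the start (chromosome 6, 32811529 to 32812244). It had 10.96, 7.44, 9.44 and 10.9 CPM at day 7 and 28.2, 32.6, 27.9 and 26.6 CPM at day 21. The lowest day 21 library was more than 2-fold above the highest of day 7. The mean rose from 9.69 ± 1.66 to 28.8 ± 2.61 CPM (1.55 ± 0.11, region edgeR adjusted p = 3.21e-18), or 2.93-fold. A region at 91.19 kb (chromosome 6, 32968802 to 32969360) rose from 14.0 ± 0.551 to 18.0 ± 0.951 CPM without overlap (0.36 ± 0.11, region edgeR adjusted p = 0.00984). A weak region upstream of the start (chromosome 6, 33081150 to 33081510) passed as higher (0.97 ± 0.33, 0.0292). Its call was lost in 7 of 15 alternatives, with adjusted p up to 0.215 without day 21 replicate 4. Leaving out day 7 replicate 1 (0.0554), 2 (0.0538) or 4 (0.146), or day 21 replicate 1 (0.0645), ended it too. The region at 8.35 kb had 14.8 ± 1.22 and 17.2 ± 1.42 CPM (0.22 ± 0.11, region edgeR adjusted p = 0.160).

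**Figure D2:**
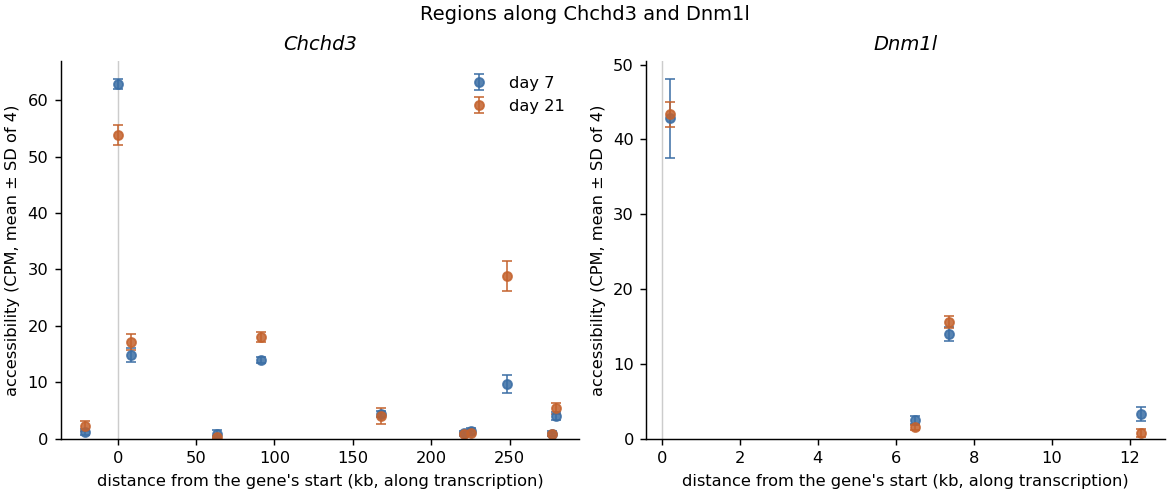
Accessibility (CPM, mean ± SD of 4 libraries, linear axis from 0) of every region of Chchd3 (left) and Dnm1l (right) against the distance of its centre from the gene's start in kb along transcription, day 7 in blue and day 21 in orange. At Chchd3 the start was lower at day 21 and the region at 248.39 kb rose from 9.69 to 28.8 CPM; at Dnm1l the region at 12.28 kb fell from 3.34 to 0.740 CPM while the start had similar values.

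Region by region, 4 of the 37 tested regions were higher at day 21 and 7 lower, and 26 did not pass. Over all 121865 tested regions 19.4% passed, 9.5% higher and 9.86% lower. The 4 higher regions were all distal (3 of Chchd3 and 1 of Oma1), where 3 others were lower (Dnm1l, Mff and Yme1l1) and 21 did not pass. In all tested regions of gene bodies and between genes, 9.98% were higher and 8.69% lower. The median change of the 28 tested distal regions was −0.13, against 0.02 over all such regions. Day 7 and day 21 did not overlap in 9 of the member regions, 6 lower and 3 higher, against 19.8% of all tested regions (9.8% lower and 9.99% higher). Of these 9, 2 lower and 3 higher ones were distal, against 19.1% of all regions in bodies and between genes (8.68% lower and 10.4% higher). In distal sums 2 of 9 tested genes were lower (Mff and Yme1l1), 1 higher (Chchd3) and 6 did not pass, against 11.4% lower and 19.2% higher over 14835 genes. Without overlap were Yme1l1 (lower) and Chchd3 (higher), against 10.4% and 17.1% of all genes.

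**Figure D3:**
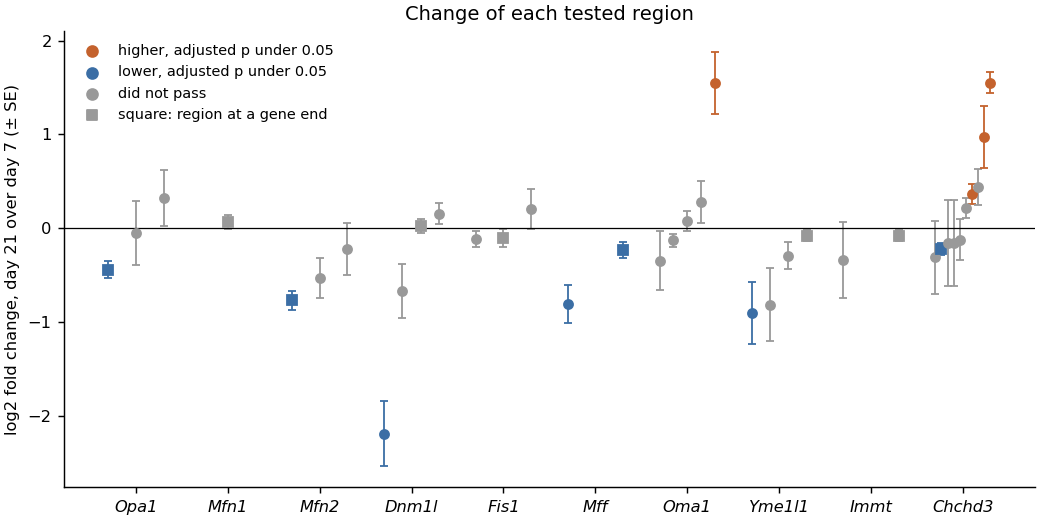
Change (log2 fold change, day 21 over day 7, ± SE) of each of the 37 tested regions, ordered by change within a gene; squares are regions at gene ends, circles distal regions, and colour marks regions past an adjusted p of 0.05. The 4 lower squares are the starts of Opa1, Mfn2, Mff and Chchd3, and the highest and lowest circles belong to Chchd3 (1.55), Oma1 (1.55) and Dnm1l (−2.20).

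The levels of the starts themselves differed more between genes than between days. Per kb of region, the region that Yme1l1 shares with Mastl had 91.0 ± 4.84, Immt 85.8 ± 3.01 and Chchd3 82.2 ± 1.19 CPM at day 7. Oma1, at the start of the promoter table, followed with 71.5 ± 3.68, Mfn1 with 66.0 ± 5.62, Dnm1l with 52.5 ± 6.43, Fis1 with 50.8 ± 2.00, Opa1 with 41.2 ± 1.84, Mfn2 with 32.0 ± 2.91 and Mff with 31.1 ± 1.98 CPM per kb. The bands of mean ± SD overlapped between the neighbours Yme1l1 and Immt, Immt and Chchd3, Oma1 and Mfn1, Dnm1l and Fis1, and Mfn2 and Mff. At day 21 Oma1 (65.4 ± 6.35) was below Mfn1 (68.9 ± 5.90), and Mfn2 (18.7 ± 1.95) was below Mff (26.2 ± 1.94), while the others kept their order. By mean CPM per kb, Immt stood at percentile 96.0 of all gene ends, Opa1 at 67.9 and Mfn2 at 51.7.

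**Figure D4:**
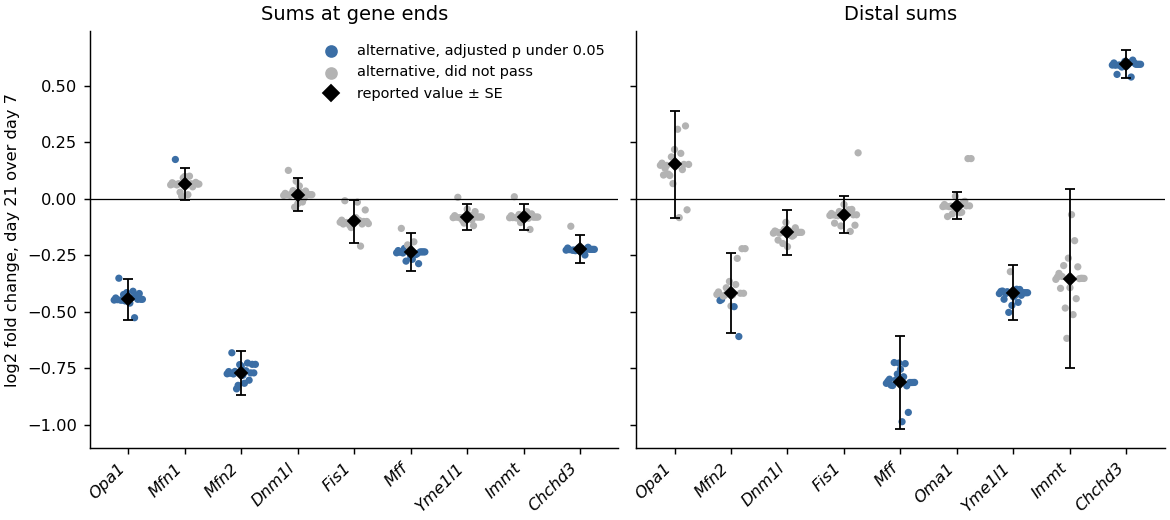
Log2 fold change (day 21 over day 7) of the sums at gene ends (left) and of the distal sums (right): black diamonds are the reported values ± SE, and dots the values under each alternative processing, blue where adjusted p was under 0.05. The dots of Opa1 (−0.53 to −0.35) and Mfn2 (−0.84 to −0.68) at gene ends and of Chchd3 in distal regions (0.54 to 0.61) all passed, whereas those of Mff and Chchd3 at gene ends did not in every case.

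Other genes of mitochondrial shape, 46 in a list of regulators, proteases, MICOS partners and transport adaptors, gave a wider view. At gene ends 45 were tested: 3 were higher, 7 lower and 35 did not pass, where 6.71% of all genes were higher and 24.6% lower, with a median of −0.08, close to the −0.09 of all genes. The trended scaling gave 7 higher and 4 lower, with no share of all genes to set beside them, and medians of 0.02 and −0.0044. Letm1, an inner-membrane protein of ion exchange, rose from 32.3 ± 2.89 to 42.5 ± 3.50 CPM (0.40 ± 0.08, edgeR adjusted p = 3.84e-05). Miga1, a mitoguardin of the outer membrane that promotes fusion, had 0.31 ± 0.10 (edgeR adjusted p = 0.0128), and Trak1, an adaptor of mitochondrial transport, 0.22 ± 0.08 (0.0346). Both lost their call when single libraries were left out. For Miga1 these were day 7 replicate 4 (0.104) and day 21 replicates 2 (0.0549) and 4 (0.0597). For Trak1 they were day 7 replicates 2 (0.114) and 3 (0.0892) and day 21 replicates 2 (0.0660), 3 (0.0923) and 4 (0.135).

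The lowest p values among the losses belonged to Afg3l2, a subunit of the inner-membrane m-AAA protease, with 58.0 ± 5.31 CPM at day 7 and 44.5 ± 3.32 CPM at day 21 (−0.38 ± 0.07, edgeR adjusted p = 1.96e-05). Inf2, a formin that builds actin at fission sites, fell by 0.49 ± 0.10, and Mtfr1, a fission regulator, by 0.24 ± 0.06. In distal regions 34 genes of the list were tested: 9 were higher, 3 lower and 22 did not pass, where 19.2% of all genes were higher and 11.4% lower, with a median of 0.11 against 0.04 over all genes. Usp30, a deubiquitinase that opposes mitophagy, rose from 6.58 ± 1.92 to 11.05 ± 1.01 CPM (0.73 ± 0.15, edgeR adjusted p = 1.47e-04). Mul1, a ubiquitin ligase of the outer membrane, rose by 0.42 ± 0.09 and Trak1 by 0.28 ± 0.06. Mtx3, of the metaxin family, fell from 51.2 ± 3.15 to 37.2 ± 2.77 CPM (−0.46 ± 0.07), and Mtfr1 fell by 0.37 ± 0.10. Apool, a MICOS subunit, had −0.53 ± 0.20 (edgeR adjusted p = 0.0307), which did not pass with DESeq2 (0.0603). It was also lost without day 7 replicate 1 (0.0663), 2 (0.108) or 3 (0.0536), or without day 21 replicate 3 (0.189).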

How the data were processed

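The authors deposited raw counts per region for 8 ATAC-seq libraries over 1 shared set of 128057 regions, and every value column was matched to a library by its label. The tools listed per the submitters' processing notes are MACS2 2.1.0.20150603, bedtools, SAMtools, Picard 1.65 and cutadapt 1.9, and the builds listed there are GRCm38 and mm10. The aligner, read filters, merging of peaks, unit counted, transposase shift and counting base of the coordinates are not given in the sources used here.

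Members and gene lists were chosen with earlier results of these data known. Gene ends came from a RefSeq gene table (GRCm38.p6), and strands from the RefSeq promoter table, which held all 10 members. Regions within 1000 bp of either end of a gene were summed per gene, as were distal regions. The test was edgeR 4.0.16 (R 4.3.3): filterByExpr, TMM factors from the regions (0.978 to 1.01), day as the only term, glmQLFit and glmQLFTest, Benjamini-Hochberg adjustment over all features. The SE is the absolute log2 fold change divided by the square root of F. The ratio of gene ends to distal regions used limma 3.58.1 on log2(CPM + 0.5). Alternatives used DESeq2 1.42.0, limma-voom, other scalings, filters, windows (500 and 2000 bp) and reach (25 kb), thinned counts and left-out libraries. The ratio and the starts of the promoter table were added after seeing the data. The scripts were tested on simulated data, with 100 features changed by each size and 1 common dispersion per fit. There the region fit recovered 6% of changes of 0.5 on the log2 scale and 66% of changes of 1. For sums at gene ends these shares were 86% and 96%. Far fewer features changed there than passed in the data (19.4% of regions and 31.3% of sums at gene ends), which alters the adjusted threshold. The shares therefore do not tell how many real changes the reported tests found. Single regions that did not pass may still have changed.

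Named by rule were all members, every Opa1 region, other member regions past the threshold or strongest in their gene, the 3 genes most like Opa1, and of the other shape genes 3 per direction with the smallest p. Other member regions were named after their values were seen. Each library counted as 1 sample. Within a day library pairs differed beyond counting noise (chi-square per region 2.16 to 3.00), which does not tell whether they came from separate mice.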

Additional observations from a re-analysis of the deposited data

Results flagged for a closer look

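Of 38 sets of 4 libraries, 1 had a library far from its others. At the start of Opa1, day 7 replicate 2 had 28.7 CPM, while the next highest day 7 library had 26.5 CPM. Chance gives such a gap in about 1 of 20 sets. Without this library the change at Opa1 was −0.42 ± 0.09 (edgeR adjusted p = 6.10e-04).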

How the results depend on the processing

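Opa1 and Mfn2 at gene ends, and Mff and Chchd3 in distal regions, kept their direction and stayed past the threshold in all 19 alternatives. With trended offsets of the sums 1 member was higher at gene ends (Mfn1) and 2 lower (Opa1 and Mfn2), and of the other shape genes 7 were higher and 4 lower there. Trended offsets in the fit of single regions gave 0 higher and 4 lower member regions at gene ends. For these counts with trended offsets no share of all genes or regions is given. Leaving out 1 library at a time gave 0 higher and 3 to 4 lower members at gene ends, and 1 to 2 higher and 1 to 3 lower in distal regions. The 2 higher include Mfn1, which met the count filter only through day 21 libraries. For the other shape genes leaving out 1 library gave 1 to 4 higher and 6 to 10 lower at gene ends, with 1 higher without day 21 replicate 2 or 4. A called value changed sign in 0 of the alternatives run. Whether the same replicate numbers pair the libraries cannot be told from the labels or these values. The correlation of same-numbered libraries, in deviations from the day means, was 0.004 to 0.010, and that of other pairs −0.011 to 0.013. Of the 4 day 7 libraries 2 correlated best with their own number. With the replicate number as a block, 4 members were lower and 0 higher at gene ends, and 3 were lower and 1 higher in distal regions. Regions then gave 7 lower and 3 higher. Depth limits the distal regions, 18 of 32 of which had under 3 CPM.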
